A study of Homo sapiens with 12 samples.

Results

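The mitochondrial ribosomal protein genes described here are the nuclear genes whose symbols begin with MRPL or MRPS and a digit. A gene entered if a probe set of the array was annotated to it alone, pseudogenes were left out, and the brightest probe set on average over the 12 arrays stood for the gene. This gave 75 genes from 140 probe sets, of 19777 genes with a probe set of their own. All 75 passed the filter on low values, which kept 11184 genes with a value over log2 4 on at least 3 arrays. Of the 77 coding genes with such symbols in RefSeq, MRPL53 and MRPS24 had only probe sets that name several genes, and they were not analysed here. KGD4, once named MRPS36, carries another symbol now and is no member. By the proteins' place in the ribosome, 50 genes belonged to the large subunit and 25 to the small one, with MRPS30 and MRPS18A counted in the large subunit despite their symbols.

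HK-2, an immortalised epithelial line from the human renal proximal tubule, was treated in the study with Aa, a code name in the labels, at what they call a high dose. Control cells received the vehicle. The groups were Aa for 24 h, vehicle control for 24 h, Aa for 48 h and vehicle control for 48 h, with 3 samples each that the labels call biological replicates. All cells grew in the same medium with growth factor and hydrocortisone and came from 1 immortalised line. No source used here gives the concentration of Aa or says what it is, and the labels do not say what separates replicates, so p-values measure the spread between these samples.

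Mitochondria translate the few proteins encoded by their own genome, all of them subunits of the oxidative phosphorylation complexes, on ribosomes of their own. The ribosomal RNAs come from mitochondrial DNA, whereas every protein of these ribosomes is encoded in the nucleus, made in the cytosol and imported. The small subunit reads the messenger RNA and the large subunit joins the amino acids. Some of the proteins have homologues in bacterial ribosomes and others are found only in mitochondria. Proximal tubule cells are rich in mitochondria, and inherited defects of several of these genes cause deficiencies of oxidative phosphorylation.

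The 250 bases before the start of transcription are shown for 4 genes, because many promoters of mitochondrial genes share binding motifs and the changes of the members went both ways. They are MRPS11 and MRPL33, with the largest rises at 48 h, and MRPL48 and MRPS14, with the largest falls, among genes with a promoter in the table and no divergent coding gene starting inside the window. The sequences are RefSeq's for GRCh38.p14 and run 5′ to 3′ on the gene's strand, and capitals mark any of 9 motifs searched on both strands.
MRPS11 (chr15:88467458-88467707, plus strand): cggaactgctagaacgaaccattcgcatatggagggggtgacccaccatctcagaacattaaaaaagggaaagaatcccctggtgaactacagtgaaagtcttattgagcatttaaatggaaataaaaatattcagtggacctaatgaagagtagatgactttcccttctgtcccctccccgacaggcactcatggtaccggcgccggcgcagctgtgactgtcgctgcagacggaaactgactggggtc
MRPL33 (chr2:27771469-27771718, plus strand): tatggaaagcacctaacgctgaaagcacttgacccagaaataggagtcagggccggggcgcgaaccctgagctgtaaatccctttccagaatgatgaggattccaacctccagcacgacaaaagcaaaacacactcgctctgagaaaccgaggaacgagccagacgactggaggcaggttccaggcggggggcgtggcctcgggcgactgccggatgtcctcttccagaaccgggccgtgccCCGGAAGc
MRPL48 (chr11:73787624-73787873, plus strand): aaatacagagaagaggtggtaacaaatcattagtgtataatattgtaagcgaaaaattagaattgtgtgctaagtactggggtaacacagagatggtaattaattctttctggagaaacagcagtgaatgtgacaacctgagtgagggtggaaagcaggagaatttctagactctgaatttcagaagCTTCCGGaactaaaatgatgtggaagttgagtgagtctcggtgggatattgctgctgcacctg
MRPS14 (chr1:175023426-175023675, minus strand): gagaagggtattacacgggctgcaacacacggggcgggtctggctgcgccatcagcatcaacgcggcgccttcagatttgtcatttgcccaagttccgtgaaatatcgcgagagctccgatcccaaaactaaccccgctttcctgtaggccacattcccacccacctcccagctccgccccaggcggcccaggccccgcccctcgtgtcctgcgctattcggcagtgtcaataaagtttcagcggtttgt
The capitals in MRPL33 and MRPL48 are the ETS core CCGGAAG, which lies on the gene's strand in MRPL33 and on the other strand in MRPL48. MRPS11 and MRPS14 held none of the 9 motifs in this window.

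Promoters were in the table for 67 of the 75 genes and for 15843 coding genes in all. The ETS core CCGGAAG was found in 22 of the 67 (32.8%), against 11.8% of all coding promoters, and its shorter form CGGAAG in 47.8% against 21.7%. The ETS factor GABP is a known regulator of nuclear genes for mitochondrial proteins. The NRF1 core GCATGCGC was found in 8.96% of the members' promoters against 3.7%, and the YY1 core AAGATGG in 10.4% against 3.35%. The palindrome made by placing GC before the NRF1 core was found in 1.49% against 1.48%. The E-box CACGTG was found in 8.96% against 7.84%, the CCAAT box in 28.4% against 34.5% and the TATA box TATAAA in 2.99% against 9.23%. The cyclic AMP response element TGACGTCA was in 0 of the 67, against 2.32%. The ETS core was present in 7 of 22 members that rose at 48 h, 9 of 24 that fell and 6 of 21 that did not pass the test. The YY1 core was in 5 of the 22, 1 of the 24 and 1 of the 21, and the NRF1 core in 3, 1 and 2. These splits were not tested. These are matches to letters, and binding was not measured.

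The cells were checked against marker genes. The epithelial genes KRT8, KRT18, KRT19, EPCAM and CDH1 were all measured above the filter. Of 10 proximal tubule markers only SLC3A1 and SLC4A4 passed it, and the other 8 had group means under log2 4, among them the brush border genes CUBN, LRP2, AQP1 and ANPEP. Of markers of other cell types, 0 of 4 leukocyte genes on the array passed, as did TEK alone of 4 endothelial genes, and COL1A1, DCN and LUM of 6 fibroblast genes. With Aa, 3 of 5 epithelial genes fell at 24 h, and 1 rose and 3 fell at 48 h. Of the 2 proximal tubule genes measured 1 fell at 24 h and both fell at 48 h, and of the 3 fibroblast genes 1 fell at 24 h and 0 at 48 h. Over all probe sets, correlations ran from 0.994 to 0.997 within groups and from 0.949 to 0.976 between Aa and control arrays of the same time. RNA quality was read from ACTB and GAPDH as the excess of signal at the 3' end over the 5' end. At 24 h it averaged 0.39 (log2) with Aa and 0.31 in controls, and at 48 h it averaged 0.54 with Aa and 0.32 in controls. The part of these measures in the results on ribosomal proteins was not tested.

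After 24 h of Aa the mitochondrial ribosomal protein genes moved both ways, with more falls than rises. MRPL49, MRPL32 and MRPS18B were the members with the largest rises, and MRPS28 and MRPS14 had the largest falls, both more than 2-fold. Of the 75 genes, 11 rose, 22 fell and 42 did not pass the test, which was limma's moderated test at an adjusted p under 0.05 over all 11184 genes. Of all genes tested, 26.3% rose and 22.8% fell, 49.1% in all. With same-numbered replicates paired, 15 members rose and 27 fell, against 32.5% and 29.1% of all genes tested. The median log2 change was -0.04 over the 75 genes and 0.02 over all genes tested, with the quartiles of the members at -0.40 and 0.14. The arrays of the groups did not overlap for 41 members, 16 with Aa above and 25 with Aa below, against 30.8% and 29% of all genes tested. Without control replicate 3 of 24 h the number that fell was 14, and without control replicate 1 of 24 h the number that rose was 7. The values are normalised, so a shift common to most transcripts would not appear in them, and fewer cells of a kind and less RNA per cell cannot be told apart. When arrays were scaled to the added hybridisation controls instead, 3 members rose and 30 fell, against 14.7% and 34.6% of all genes tested. The median of all genes moved to -0.26. This scaling was applied to values that were already normalised, and the amounts of the controls per array are not given. It therefore does not measure a shift common to most transcripts.

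After 48 h rises and falls were nearly balanced, and more members passed the test. MRPL49, MRPL32, MRPS11, MRPL33 and MRPS12 were at least 2-fold higher in Aa-treated cells, and MRPS28 and MRPL48 were at least 2-fold lower. In all, 23 of the 75 genes rose, 26 fell and 26 did not pass the test. Of all genes tested, 30.6% rose and 33.9% fell, 64.5% in all, so the members' shares were close to the background. With same-numbered replicates paired, 30 members rose and 29 fell, against 35.3% and 38% of all genes tested. The median log2 change was 0.01 over the members and -0.03 over all genes tested. The quartiles of the members were -0.47 and 0.38. The arrays did not overlap for 27 members with Aa above and 26 with Aa below, against 33% and 36.1% of all genes tested. With hybridisation-control scaling 7 members rose and 39 fell, against 16% and 53% of all genes tested. The median of all genes moved to -0.47. The cumulative plot of the changes shows the members within a narrower range than all genes: the median size of a change was 0.30 over the members and 0.43 over all genes at 24 h, and 0.45 against 0.61 at 48 h.

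**Figure D1:**
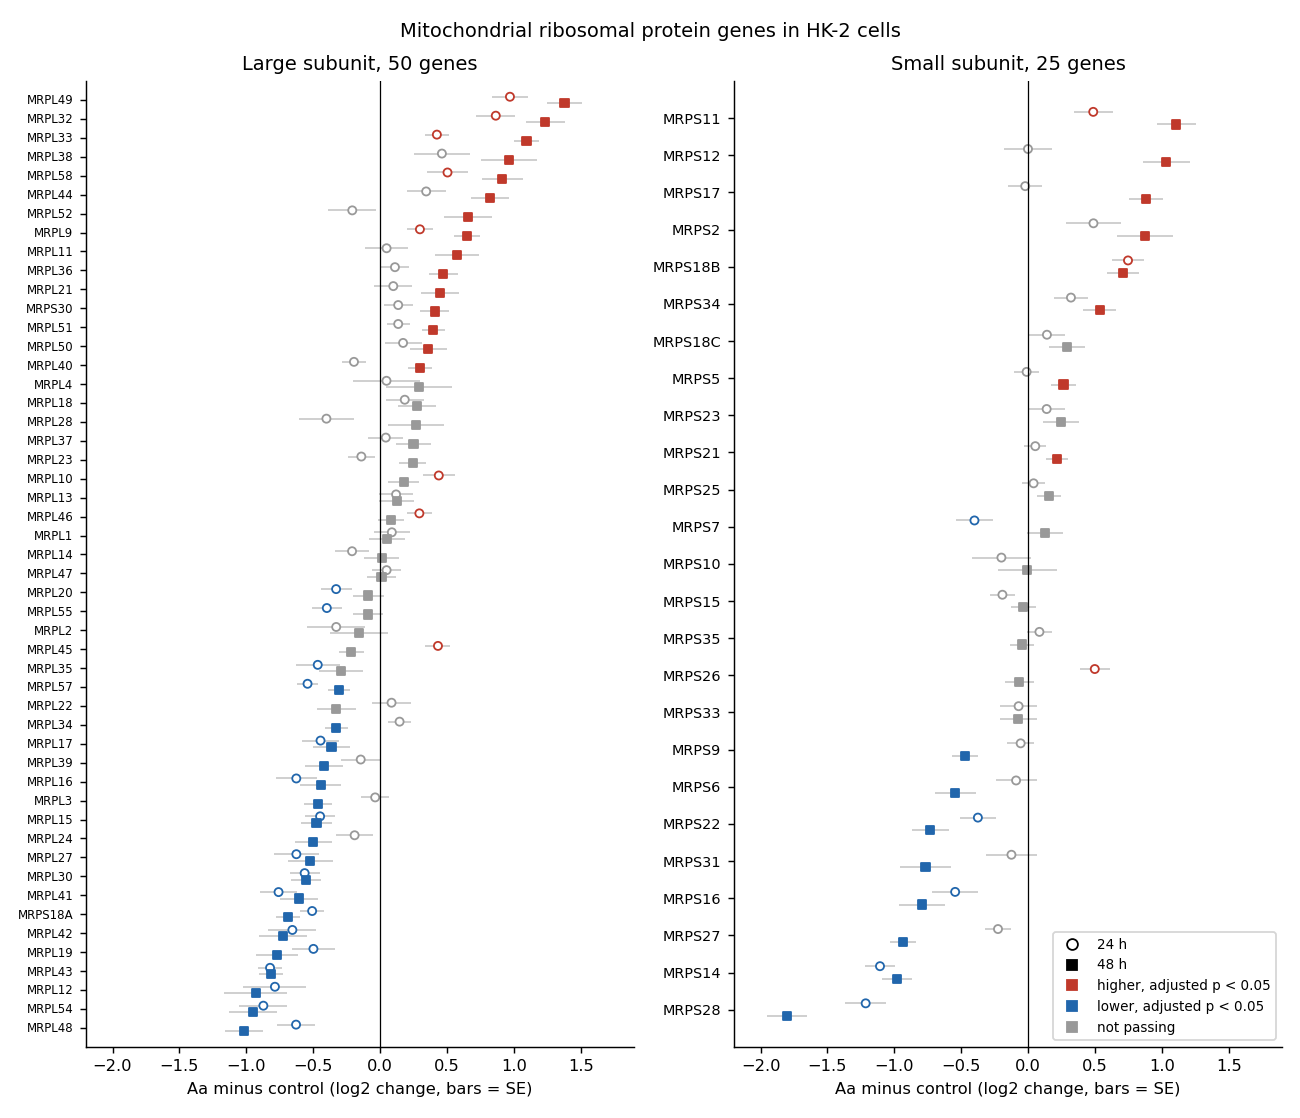
Log2 change (Aa minus control, horizontal axis) of each of the 75 genes at 24 h (open circles) and 48 h (filled squares), large subunit left and small subunit right, ordered by the 48 h change; bars are standard errors and colour marks the call. Rises and falls occur in both subunits, from 1.38 for MRPL49 to -1.80 for MRPS28 at 48 h.

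**Figure D2:**
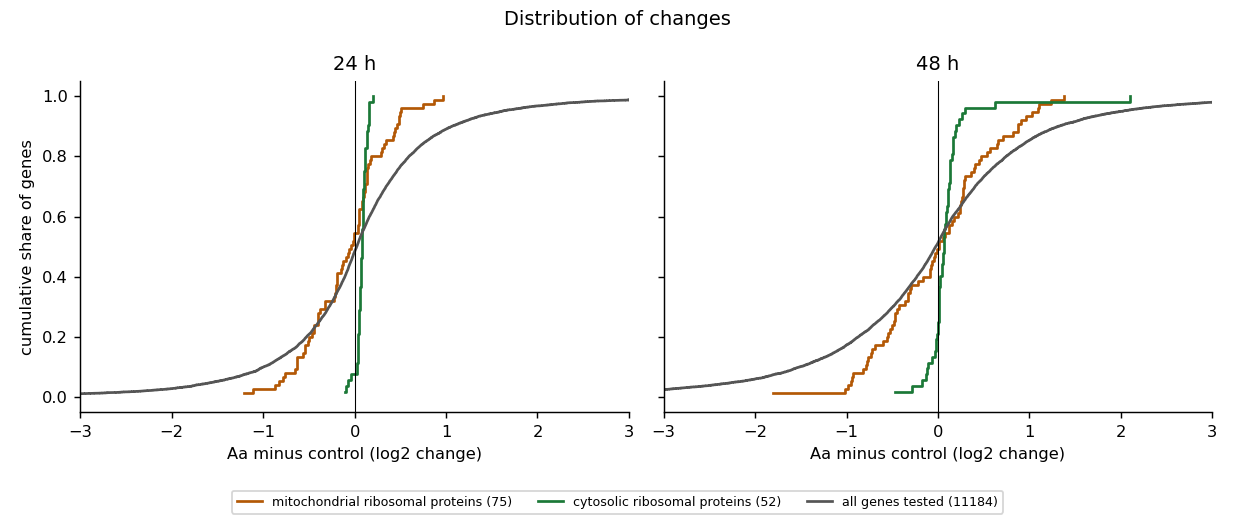
Cumulative share of genes (vertical axis) against the log2 change (Aa minus control, horizontal axis, cropped at 3 on either side) at 24 h and 48 h, for the 75 mitochondrial ribosomal protein genes, the 52 cytosolic ones and all 11184 genes tested. The curve of the mitochondrial genes is steeper than that of all genes, and the curve of the cytosolic genes is steeper still.

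By subunit, 8 large-subunit genes rose and 17 fell at 24 h, of 50, and 3 small-subunit genes rose and 5 fell, of 25. At 48 h 15 rose and 18 fell in the large subunit, and 8 rose and 8 fell in the small one. Among the 44 genes with a bacterial homologue, 5 rose and 13 fell at 24 h, and 12 rose and 15 fell at 48 h. Among the 31 genes classed as found only in mitochondria, 6 rose and 9 fell at 24 h, and 11 rose and 11 fell at 48 h. This class also holds MRPS18A and MRPS18B, which are paralogues of MRPS18C. For comparison, 26.3% of all genes tested rose and 22.8% fell at 24 h, and 30.6% rose and 33.9% fell at 48 h. Differences between these classes, or from all genes, were not tested.

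MRPL49, a large-subunit protein without a bacterial homologue, had the largest rise at both times. Its log2 values were 11.68, 11.44 and 11.74 on the Aa arrays at 24 h, against 10.66, 10.53 and 10.76 on the control arrays. At 48 h they were 11.75, 11.76 and 12.04 on the Aa arrays, against 10.41, 10.33 and 10.67 on the control arrays. Every Aa array lay above every control array of its time. The change was 0.97 (SE 0.133, 1.96-fold, adjusted p = 0.000135) at 24 h and 1.38 (SE 0.133, 2.60-fold, adjusted p = 5.86e-06) at 48 h.

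MRPL32, a homologue of bacterial L32 that is trimmed by the inner-membrane m-AAA protease after import, rose as well. At 24 h the Aa arrays had log2 values of 11.91, 12.09 and 11.999, against 10.90, 11.23 and 11.27 on the control arrays. At 48 h the values were 11.998, 12.07 and 12.41 on the Aa arrays, against 10.73, 11.06 and 10.99 on the control arrays. The groups were apart at both times, with changes of 0.86 (SE 0.145, adjusted p = 0.00055) at 24 h and 1.23 (SE 0.145, adjusted p = 2.5e-05) at 48 h.

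MRPL33, the homologue of bacterial L33 whose promoter is printed above, rose more at 48 h than at 24 h. MRPL33 measured 11.63, 11.64 and 11.56 (log2) on the Aa arrays at 24 h, against 11.12, 11.18 and 11.26 on the control arrays. The Aa arrays of 48 h measured 12.31, 12.15 and 12.38, against 11.14, 11.16 and 11.26 on the control arrays. The control arrays lay close together at both times, and every Aa array stood above them. The change was 0.42 (SE 0.0917, adjusted p = 0.0028) at 24 h and 1.09 (SE 0.0917, adjusted p = 2.18e-06) at 48 h, and the difference between the times was 0.67 (SE 0.130, adjusted p = 0.0075).

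MRPL38, a large-subunit protein found only in mitochondria, averaged 10.90 ± 0.35 on the Aa arrays and 9.94 ± 0.31 on the control arrays at 48 h (log2, SD, n = 3 each), a change of 0.96 (SE 0.210, adjusted p = 0.00199). Its 24 h change of 0.46 did not pass (adjusted p = 0.0924), but did with replicates paired (adjusted p = 0.00306). MRPL58, a peptidyl-tRNA hydrolase that releases stalled chains and has become part of the large subunit, rose by 0.50 (SE 0.153, adjusted p = 0.018) at 24 h and by 0.91 (SE 0.153, adjusted p = 0.000331) at 48 h. MRPL44, mutated in an infantile cardiomyopathy, rose by 0.82 (SE 0.145, adjusted p = 0.000484) at 48 h. Its 24 h change was 0.34 (adjusted p = 0.0711, and 0.00219 with replicates paired), and its other probe set over the filter changed by -0.17 at 48 h (adjusted p = 0.271, over all probe sets tested).

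Among the small-subunit genes, MRPS11, the homologue of bacterial S11 in the platform of the subunit, had the largest rise at 48 h. Its log2 values were 10.35, 10.53 and 10.61 on the Aa arrays at 24 h, against 9.76, 10.11 and 10.17 on the control arrays. At 48 h they were 10.77, 10.92 and 10.97 on the Aa arrays, against 9.52, 9.88 and 9.95 on the control arrays. No Aa array fell among the control arrays of its time, and the change was 0.49 (SE 0.147, adjusted p = 0.0174) at 24 h and 1.11 (SE 0.147, adjusted p = 6.09e-05) at 48 h. The 24 h call was lost without Aa replicate 3 or control replicate 1 of 24 h. A dimmer probe set of MRPS11 changed by 0.16 at 24 h (adjusted p = 0.471, over all probe sets tested) and by 0.95 at 48 h (adjusted p = 0.000684). MRPS18B rose by 0.75 (SE 0.118, adjusted p = 0.000375) at 24 h and by 0.71 (SE 0.118, adjusted p = 0.000325) at 48 h.

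MRPS12, the homologue of bacterial S12 at the decoding centre, differed at 48 h and not measurably at 24 h. At 24 h the Aa arrays had log2 values of 10.79, 10.81 and 11.18, against 10.77, 10.85 and 11.17 on the control arrays. At 48 h the values were 11.62, 11.57 and 12.01 on the Aa arrays, against 10.50, 10.64 and 10.97 on the control arrays. The groups overlapped fully at 24 h and were apart at 48 h. The change was 0.00 (SE 0.176, adjusted p = 0.994) at 24 h and 1.03 (SE 0.176, adjusted p = 0.000383) at 48 h. A dimmer probe set of MRPS12 changed by -0.95 at 24 h (adjusted p = 0.00238, over all probe sets tested) and by 0.64 at 48 h (adjusted p = 0.0158), so the 2 probe sets did not give the same 24 h value.

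MRPS17, the homologue of bacterial S17, likewise had groups that were apart at 48 h and not at 24 h. MRPS17 measured 10.40, 10.54 and 10.59 (log2) on the Aa arrays at 24 h, against 10.43, 10.39 and 10.78 on the control arrays. The Aa arrays of 48 h measured 11.07, 10.98 and 11.15, against 10.11, 10.08 and 10.37 on the control arrays. The groups overlapped at 24 h (change -0.02, adjusted p = 0.899) and were apart at 48 h (change 0.88, SE 0.128, adjusted p = 0.000118).

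**Figure D3:**
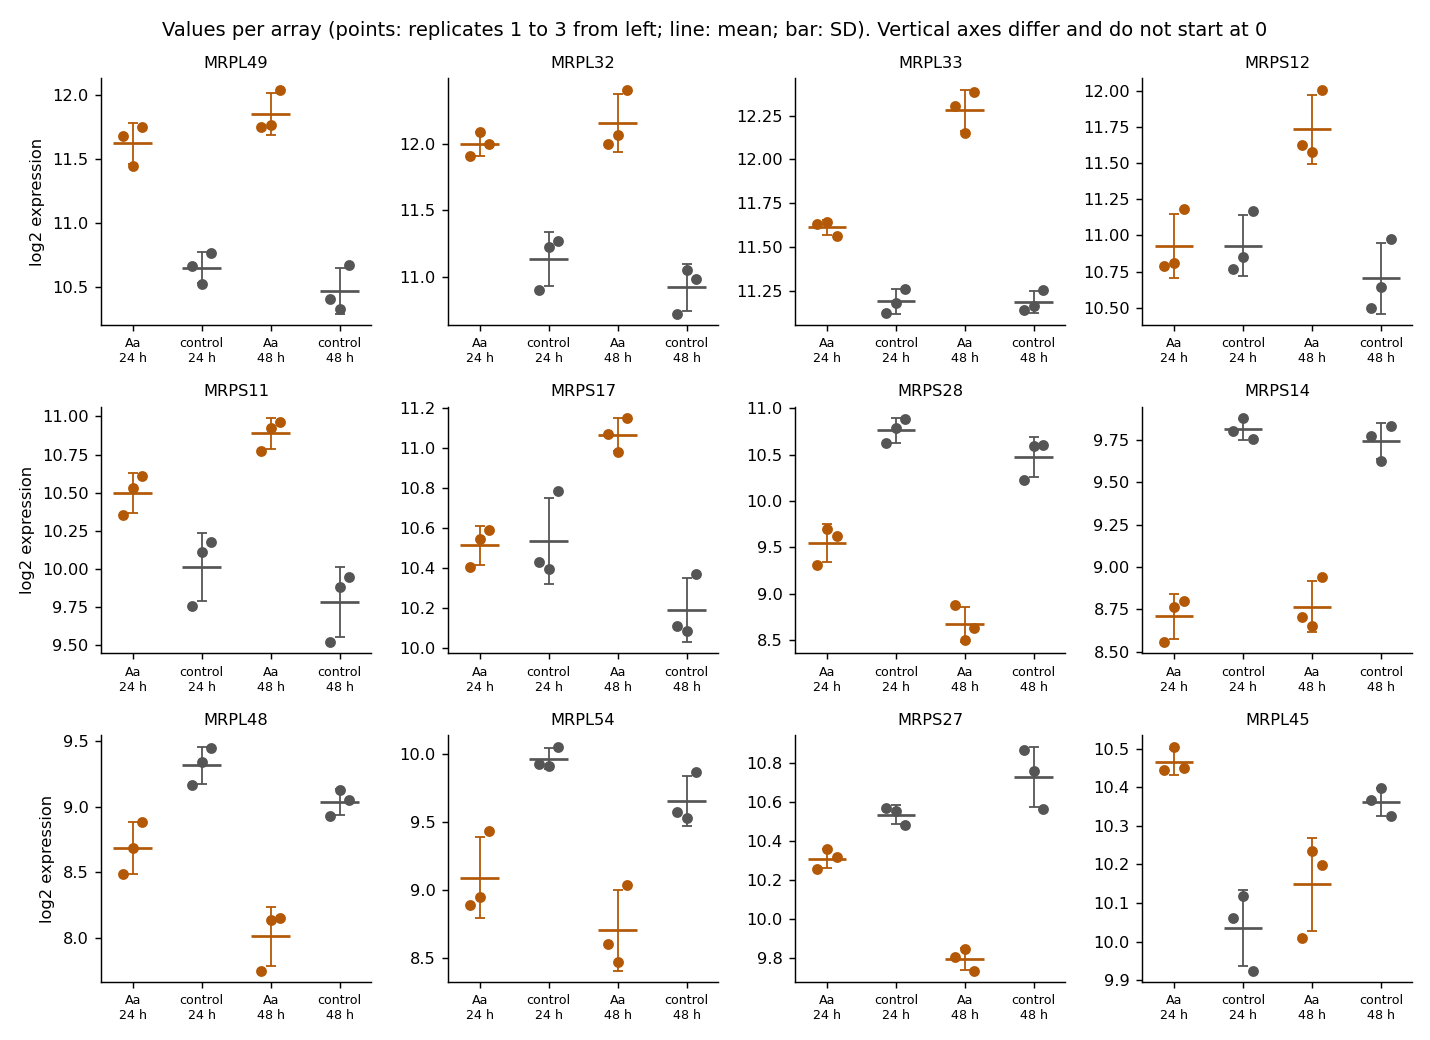
Log2 values (vertical axes, which differ and do not start at 0) of 12 members on each array, in the order Aa 24 h, control 24 h, Aa 48 h and control 48 h; points are arrays, lines means and bars SD (n = 3). The groups of MRPS12 and MRPS17 overlap at 24 h and are apart at 48 h, and those of MRPS28 and MRPS14 are apart at both times.

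MRPS28, the homologue of bacterial S1, had the largest fall at both times. Its log2 values were 9.31, 9.70 and 9.63 on the Aa arrays at 24 h, against 10.62, 10.78 and 10.88 on the control arrays. At 48 h they were 8.88, 8.50 and 8.63 on the Aa arrays, against 10.23, 10.59 and 10.60 on the control arrays. The lowest control array was above the highest Aa array by more than the range within either group. MRPS28 fell by 1.21 (SE 0.151, 2.32-fold, adjusted p = 7.05e-05) at 24 h and by 1.80 (SE 0.151, 3.49-fold, adjusted p = 2.18e-06) at 48 h.

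MRPS14, the homologue of bacterial S14 in the head of the subunit, fell at both times. At 24 h the Aa arrays had log2 values of 8.56, 8.77 and 8.80, against 9.81, 9.88 and 9.76 on the control arrays. At 48 h the values were 8.71, 8.65 and 8.94 on the Aa arrays, against 9.78, 9.63 and 9.84 on the control arrays. The groups were far apart at both times, with changes of -1.11 (SE 0.111, adjusted p = 1.51e-05) and -0.98 (SE 0.111, adjusted p = 1.87e-05). The other probe set of MRPS14 over the filter changed by -1.02 and -1.07.

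MRPS27, a small-subunit protein with pentatricopeptide repeats, fell by 0.93 (SE 0.0965, adjusted p = 9.77e-06) at 48 h, with log2 values of 9.81, 9.85 and 9.74 on the Aa arrays, against 10.87, 10.76 and 10.57 on the control arrays. At 24 h it changed by -0.23 (adjusted p = 0.0746, and 0.0326 with replicates paired). MRPS16 and MRPS22, both mutated in combined deficiencies of oxidative phosphorylation, fell by 0.79 (adjusted p = 0.00185) and 0.73 (adjusted p = 0.000706) at 48 h. At 24 h MRPS16 fell by 0.55 (adjusted p = 0.0209) and MRPS22 by 0.38 (adjusted p = 0.0405). The other probe set of MRPS16 changed by -0.10 at 24 h (adjusted p = 0.509, over all probe sets tested) and by -0.81 at 48 h (adjusted p = 0.000101). Those of MRPS22 changed by -0.38, -0.26 and -0.30 at 24 h (adjusted p = 0.0325, 0.124 and 0.0707). The 24 h call of MRPS16 was lost without Aa replicate 1 or control replicate 2 of 24 h, and that of MRPS22 without any of 6 arrays, 2 of them from 48 h.

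In the large subunit the largest fall at 48 h was that of MRPL48, a protein found only in mitochondria, whose promoter is also printed above. MRPL48 measured 8.49, 8.69 and 8.88 (log2) on the Aa arrays at 24 h, against 9.16, 9.33 and 9.44 on the control arrays. The Aa arrays of 48 h measured 7.76, 8.14 and 8.15, against 8.93, 9.13 and 9.05 on the control arrays. The groups were apart at both times, with changes of -0.63 (SE 0.142, adjusted p = 0.00361) and -1.02 (SE 0.142, adjusted p = 8.7e-05).

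MRPL12, a protein of the stalk that contacts translation factors and also a reported partner of mitochondrial RNA polymerase, fell at both times. Its log2 values were 9.32, 8.76 and 9.12 on the Aa arrays at 24 h, against 9.97, 9.47 and 10.12 on the control arrays. At 48 h they were 8.89, 8.27 and 8.80 on the Aa arrays, against 9.62, 9.25 and 9.88 on the control arrays. Replicate 2 was the lowest in every group, and the groups did not overlap. MRPL12 fell by 0.79 (SE 0.236, adjusted p = 0.017) at 24 h and by 0.93 (SE 0.236, adjusted p = 0.0051) at 48 h. The 24 h call was lost without Aa replicate 2, control replicate 1 or control replicate 3 of 24 h.

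MRPL54, MRPL43 and MRPL41, large-subunit proteins found only in mitochondria, fell at both times. MRPL54 changed by -0.87 (adjusted p = 0.00205) at 24 h and -0.95 (adjusted p = 0.000765) at 48 h. MRPL43 changed by -0.82 at both times (adjusted p = 2.68e-05 and 1.44e-05), and MRPL41 by -0.76 (adjusted p = 0.00101) and -0.61 (adjusted p = 0.00284). MRPL3, the homologue of bacterial L3, changed by -0.04 at 24 h (adjusted p = 0.795) and fell by 0.47 at 48 h (adjusted p = 0.00237).

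The 3 paralogues MRPS18A, MRPS18B and MRPS18C, of which MRPS18C is counted as the homologue of bacterial S18, are known to occupy different places in the ribosome. MRPS18A fell by 0.51 (adjusted p = 0.000673) at 24 h and by 0.69 (adjusted p = 4.64e-05) at 48 h, while MRPS18B rose at both times, as given above. MRPS18C changed by 0.14 (adjusted p = 0.414) and 0.29 (adjusted p = 0.0776, and 0.0187 with replicates paired). KGD4, the former MRPS36 and now counted as a subunit of the oxoglutarate dehydrogenase complex, changed by -0.27 at 24 h (adjusted p = 0.148) and fell by 0.55 at 48 h (adjusted p = 0.00653).

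Of the 75 genes 7 rose at both times (9.33%, against 20.1% of all genes tested) and 18 fell at both (24%, against 19.1%). Without pairing of replicates, none passed in opposite directions at the 2 times, against 0.769% of all genes tested. A further 16 rose (21.3%, against 10.3%) and 8 fell (10.7%, against 14.2%) at 48 h without passing at 24 h. At 24 h 4 rose (5.33%, against 5.69%) and 4 fell (5.33%, against 3.44%) without passing at 48 h. The remaining 18 passed at neither time (24%, against 26.4%). Differences between these shares were not tested. All these calls are without pairing. With replicates paired, MRPL28 fell at 24 h (-0.40, adjusted p = 0.00111) and rose at 48 h (0.27, 0.00763). So did MRPL40 (-0.20, 0.0384, and 0.30, 0.00419). MRPL45 rose at 24 h (0.43, 0.00112) and fell at 48 h (-0.22, 0.0302). MRPL28 is named after its values were seen. The share of all genes passing in opposite directions with pairing was not counted. Across genes, which are not independent replicates, the changes at 24 h and 48 h had a Pearson correlation of 0.813 over the 75 members and 0.862 over all 11184 genes.

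The change at 48 h differed from that at 24 h for 9 members. It was more positive for 5 and more negative for 4, against 6.8% and 12.7% of all genes tested, 19.5% in all. The median difference was 0.15 over the members and -0.07 over all genes tested. With replicates paired the counts were 18 and 12, against 15.4% and 23.1% of all genes tested in the same fit. Of the members named here for other values, pairing added positive differences for MRPS11 (0.62, adjusted p = 0.00271), MRPL38 (0.50, 0.0207), MRPL44 (0.48, 0.00597), MRPL49 (0.41, 0.0154) and MRPL58 (0.41, 0.0395). It added negative ones for MRPS28 (-0.59, adjusted p = 0.0455), MRPL3 (-0.43, 0.0121), MRPL48 (-0.39, 0.0257) and MRPS22 (-0.36, 0.0443). Without pairing their adjusted p ran from 0.0581 to 0.253. With no pairing the counts were 3 and 2 without control replicate 3 of 24 h, while 3 differences were more positive without control replicate 1 of 48 h and 8 without control replicate 3 of 48 h.

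MRPS12 had the largest positive difference, 1.03 (SE 0.249, adjusted p = 0.0184), followed by MRPS17 with 0.90 (SE 0.181, adjusted p = 0.00861). MRPL52, found only in mitochondria, had a difference of 0.87 (SE 0.252, adjusted p = 0.0367) that was lost without any of 8 arrays. Its changes were -0.21 at 24 h (adjusted p = 0.362) and 0.66 at 48 h (adjusted p = 0.00755). MRPS27 had the largest negative difference, -0.71 (SE 0.136, adjusted p = 0.00737).

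MRPL45, a relative of the import protein TIM44 placed at the exit of the ribosomal tunnel, was higher in Aa-treated cells at 24 h and not at 48 h. At 24 h the Aa arrays had log2 values of 10.44, 10.51 and 10.45, against 10.06, 10.12 and 9.92 on the control arrays. At 48 h the values were 10.01, 10.24 and 10.20 on the Aa arrays, against 10.37, 10.40 and 10.32 on the control arrays. All Aa arrays were above the control arrays at 24 h and below them at 48 h. The changes were 0.43 (adjusted p = 0.00279) and -0.22 (adjusted p = 0.0637, and 0.0302 with replicates paired), and their difference was -0.65 (SE 0.132, adjusted p = 0.00913).

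MRPS26, a small-subunit protein found only in mitochondria, changed by 0.50 at 24 h (adjusted p = 0.0034) and by -0.07 at 48 h (adjusted p = 0.627), a difference of -0.56 (SE 0.157, adjusted p = 0.0313) that was lost without any of 7 arrays. MRPL34, the homologue of bacterial L34, changed by 0.15 (adjusted p = 0.188) and -0.33 (adjusted p = 0.00602), a difference of -0.47 (SE 0.121, adjusted p = 0.023) that was lost without control replicate 3 of 24 h or control replicate 1 of 48 h.

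In the controls alone, 0 members rose and 1 fell between 24 h and 48 h, against 0.277% and 0.358% of all genes tested, 0.635% in all. At an unadjusted p under 0.05 the numbers were 2 and 10, against 8.1% and 9.01% of all genes tested. The member that fell was MRPL1, the homologue of bacterial L1, by 0.74 (SE 0.135, adjusted p = 0.0422); it is named because it was the only one, after its value was seen. The median change of the members between control times was -0.17, against -0.01 over all genes tested, and 64 of the 75 values were below 0. With replicates paired 2 members rose and 13 fell, against 6.65% and 8.27% of all genes tested. In Aa-treated cells 4 members rose and 16 fell from 24 h to 48 h, against 9.65% and 19.5% of all genes tested, 29.2% in all. The 4 were MRPS12, MRPL33, MRPS17 and MRPL40, named after their values were seen, and 15 rose with replicates paired, against 16.1% of all genes tested.

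Most members that had other probe sets over the filter gave values of the same sign. There were 44 such probe sets in 27 genes, and 36 of them went the way of the chosen one at 24 h and 29 at 48 h. In 19 of these genes every other probe set had that sign at 24 h, and in 15 at 48 h. A dimmer probe set of MRPS23 rose by 2.99 at 24 h and 3.20 at 48 h (adjusted p = 0.000216 and 7.73e-05, over all probe sets tested). The chosen one changed by 0.14 and 0.24. A dimmer one of MRPS25 rose by 1.14 and 0.87 (adjusted p = 0.00372 and 0.0119), against 0.04 and 0.15 for the chosen one. Both genes are named after their values were seen. Opposite changes that both passed the test, here adjusted over all probe sets tested, were found in 4 genes. MRPL19 fell by 0.50 at 24 h (adjusted p = 0.0253), while another of its probe sets rose by 1.04 (adjusted p = 0.00656). MRPL35 fell by 0.47 at 24 h (adjusted p = 0.0403), and another probe set rose by 1.10 (adjusted p = 0.000841). At 48 h the chosen probe set of MRPL35 changed by -0.29 (adjusted p = 0.146 over genes, and 0.0196 with replicates paired). One of the 5 probe sets of MRPL30 rose by 0.80 at 24 h (adjusted p = 0.034) and 1.20 at 48 h (adjusted p = 0.00294), whereas the chosen one fell by 0.56 at both times (adjusted p = 0.00228 and 0.00169). MRPS30, a large-subunit protein despite its symbol, rose by 0.41 at 48 h (adjusted p = 0.0093) with another probe set falling by 0.68 (adjusted p = 0.014). Other probe sets of MRPL30 fell like the chosen one, by 0.75 and 0.93 at 24 h and by 0.56 and 0.96 at 48 h. Each of these falls had an adjusted p under 0.05. The remaining one changed by -0.01 and 0.04. The direction read for these 4 genes depends on the probe set.

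Members differed in the length of the gene. At 48 h the 13 genes that span over 30000 bases had a median change of -0.47, and 1 of them rose and 8 fell. Among the 39 genes under 10000 bases the median was 0.28, and 17 rose and 10 fell. The 23 genes between these limits had a median of -0.07, and 5 rose and 8 fell. The other tested genes did not follow one order: their median was -0.30 over 30000 bases, 0.23 between the limits and 0.14 under 10000 bases, where 46.5%, 20.1% and 22.9% fell. At 24 h the medians of the members were -0.09 over 30000 bases and 0.00 under 10000 bases. Across genes, Spearman's correlation of span and change was -0.04 at 24 h and -0.33 at 48 h over the 75 members, and -0.25 and -0.37 over the other 11101 genes with a span. MRPS28, MRPS27 and MRPL48 span 111543, 100838 and 77260 bases, and MRPL49 and MRPL32 span 5189 and 5482 bases. Other members went against this: MRPL1, which spans 89956 bases, changed by 0.05 at 48 h (adjusted p = 0.759), and MRPL54, MRPL12 and MRPL41, which fell, span 4884, 4151 and 677 bases.

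**Figure D4:**
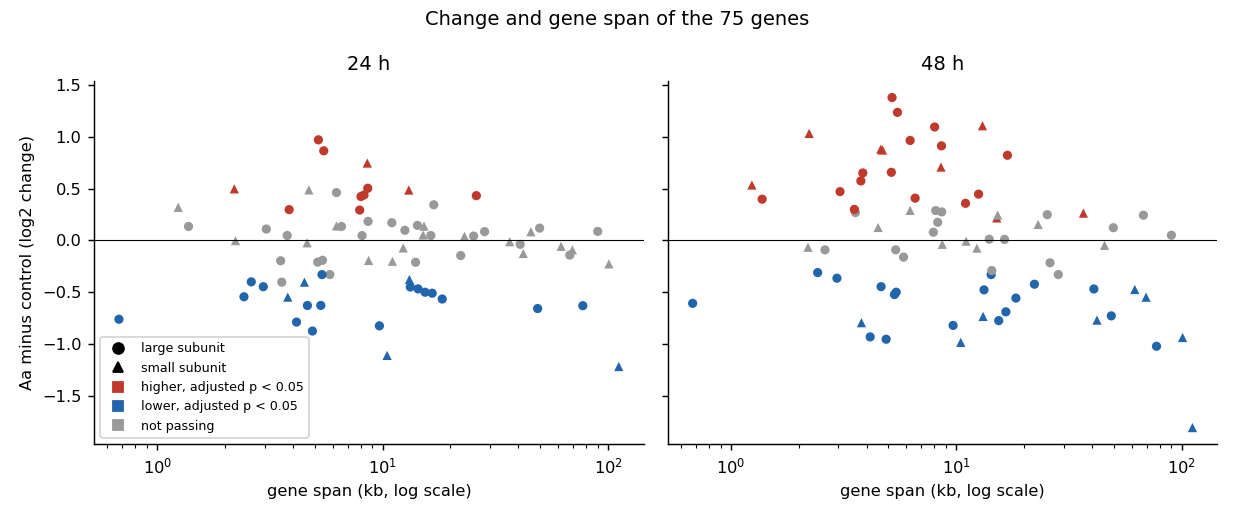
Log2 change (Aa minus control, vertical axis) of the 75 genes against the span of the gene (kb, log axis) at 24 h and 48 h; circles are large-subunit and triangles small-subunit genes, coloured by call. At 48 h 8 of the 13 genes over 30000 bases are lower and 1 is higher, against 46.5% and 21.2% of other genes that long.

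For 18 members another coding gene starts within 1000 bases on the opposite strand, and the neighbour was tested in 17 cases. Both genes passed the test at 48 h in 4 pairs. Of all genes tested 64.5% passed at 48 h, and the share among other pairs of this kind was not counted. MRPL49 and FAU, a cytosolic ribosomal protein gene that starts 49 bases away, rose by 1.38 and 0.63. In the other 3 pairs the member fell and the neighbour rose: MRPL27 fell by 0.52 beside EME1 (0.80), MRPL54 fell by 0.95 beside APBA3 (2.11), and MRPL57 fell by 0.31 beside SKA3 (0.86). MRPS11 and MRPL46 start 320 bases apart, and MRPS11 changed by 1.11 at 48 h while MRPL46 changed by 0.08 (adjusted p = 0.482). MRPS12 changed by 1.03 and its neighbour SARS2, the mitochondrial seryl-tRNA synthetase, by 0.03 (adjusted p = 0.872). These pairs are named after their values were seen, and the differences within pairs were not tested.

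Other genes of mitochondrial translation were read from lists. For comparison, 26.3% of all genes tested rose and 22.8% fell at 24 h, and 30.6% rose and 33.9% fell at 48 h. Differences of the lists from these shares were not tested. The list of translation factors also held inner-membrane proteins such as LETM1. Of its 15 genes 5 rose and 0 fell at 24 h, where 1 was lower at an unadjusted p under 0.05. At 48 h 5 of them rose and 6 fell. The release factor MTRF1L rose by 1.79 (adjusted p = 6.23e-07) at 48 h, the inner-membrane protein LETM1 by 1.11 (adjusted p = 1.9e-05) and the elongation factor GUF1 by 0.90 (adjusted p = 2.6e-05). Of 29 genes for ribosome assembly and ribosomal RNA modification, 13 rose and 8 fell at 24 h, and 13 rose and 7 fell at 48 h. The GTPase gene MTG2 rose by 2.31 (adjusted p = 5.97e-07) at 48 h and the methyltransferase gene MRM3 by 1.49 (adjusted p = 2.15e-06), whereas YBEY, an endoribonuclease gene, fell by 1.44 (adjusted p = 1.57e-06).

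Of 15 genes for mitochondrial DNA replication, transcription and RNA stability, 5 rose and 3 fell at 24 h, against 26.3% and 22.8% of all genes tested. At 48 h 7 of the 15 rose and 4 fell, against 30.6% and 33.9% of all genes tested. POLG2, the accessory subunit of the mitochondrial DNA polymerase, rose by 2.37 (adjusted p = 4.75e-08) at 48 h, the helicase TWNK by 2.12 (adjusted p = 1.58e-06) and the helicase SUPV3L1 by 1.46 (adjusted p = 1.35e-06). Of 11 nuclear regulators of mitochondrial genes 2 rose and 2 fell at 24 h, and 1 rose and 7 fell at 48 h. PPARGC1A, a coactivator of mitochondrial biogenesis, fell by 2.65 (adjusted p = 9.48e-05) and MYC by 1.20 (adjusted p = 2.78e-05), while the coactivator PPRC1 rose by 1.00 (adjusted p = 6.15e-05). Mitochondrial ribosomal proteins with other symbols (DAP3, PTCD3, CHCHD1 and GADD45GIP1) had 0 of 4 passing at either time, and 0 at an unadjusted p under 0.05.

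The cytosolic ribosomal protein genes that were tested moved little. Of 46 listed for the large subunit 32 had a probe set of their own, and of 32 listed for the small subunit 21 did. None of 31 large-subunit and 21 small-subunit genes passed at 24 h in limma, with 0 at an unadjusted p under 0.05, and their median changes were 0.09 and 0.08. At 48 h 3 rose and 1 fell in the large subunit, and 2 rose and 1 fell in the small one. Over all genes tested 49.1% passed at 24 h, and 30.6% rose and 33.9% fell at 48 h. At 48 h RPL36A averaged log2 6.84 with Aa and 4.75 in controls, a rise of 2.10 (adjusted p = 1.95e-07). RPL3 fell by 0.47 (adjusted p = 0.000491) and FAU rose by 0.63 (adjusted p = 0.000309). RPL35 rose by 0.29 (adjusted p = 0.0117), RPS19 rose by 0.26 (adjusted p = 0.0144) and RPS15A fell by 0.29 (adjusted p = 0.0126). RPL19, named after its value was seen, rose by 0.23 (adjusted p = 0.0303). Many cytosolic ribosomal protein genes share sequence with pseudogenes, so their values are uncertain. The difference between mitochondrial and cytosolic genes was not tested.

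**Figure D5:**
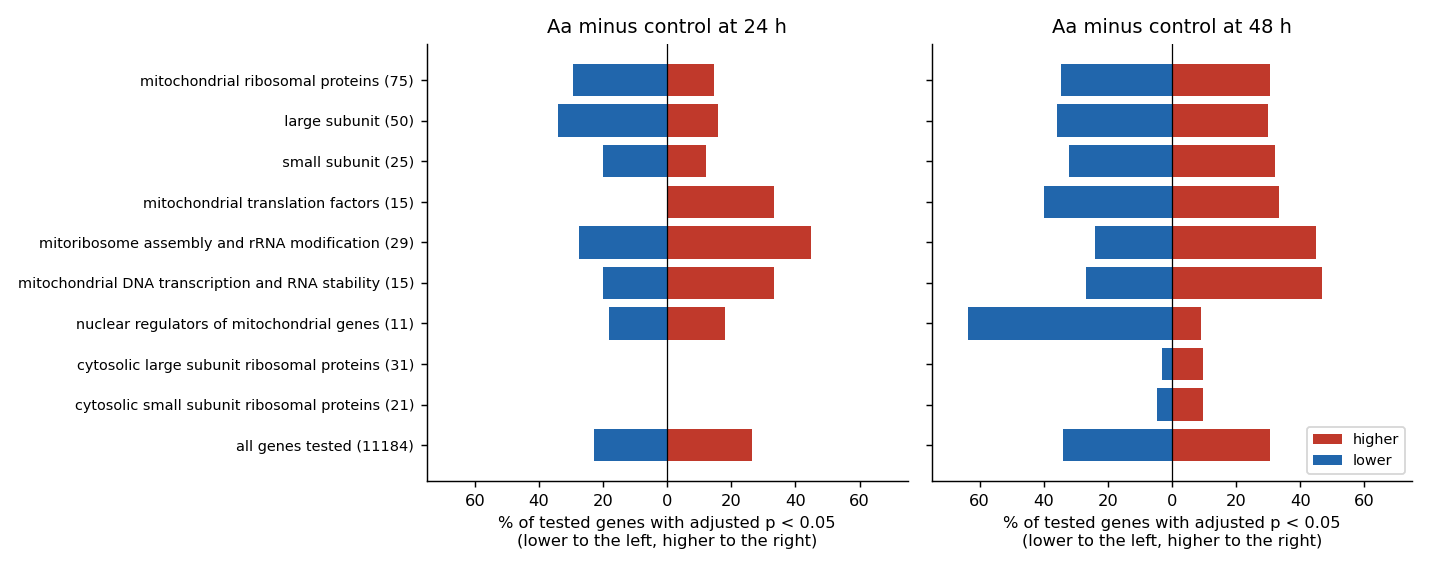
Share of tested genes (%, horizontal axis) that were higher (right) or lower (left) in Aa than in control cells at 24 h and 48 h, with the number tested in parentheses. The 75 mitochondrial ribosomal protein genes have shares near those of all genes tested at 48 h, and the cytosolic ribosomal protein genes have few calls at either time.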

How the data were processed

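RNA of 12 samples was measured on Affymetrix arrays. The deposited values are log2 expression per probe set. Per the submitters' processing notes they came from GCRMA (version not given in the sources used here). The values themselves show base 2. Members and lists were chosen with earlier results of these data known, as were the spans, motifs (9 searched), neighbours and printed promoters. Genes were named from the platform annotation and RefSeq (GRCh38.p14).

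Changes were tested with limma 3.58.1 (lmFit, eBayes) in R 4.3.3, as contrasts of 4 group means over 12 arrays, on the 11184 genes over log2 4 on at least 3 arrays. Every adjusted p is limma's, two-sided, Benjamini-Hochberg over all genes tested, or over all probe sets tested for values of single probe sets where stated. Precision is limited by the number of arrays: the median standard error was 0.161 within a time and 0.227 for the difference between times. The fit was tested on simulated data with independent noise on each array. Those data lacked the correlation between same-numbered samples given below.

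Named members were those passing with the 6 largest rises and falls per time, the 4 largest differences between times in either direction, members with opposite passing probe sets, and MRPL3, MRPL12, MRPL44, MRPL58, MRPS12, MRPS16, MRPS22, MRPS36 and the MRPS18 genes. Of other lists, up to 3 genes with the smallest p at 48 h were named, and RPL19 beside them.

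Replicate numbers paired the samples: deviations from group means correlated at 0.279 to 0.577 in all 18 same-numbered pairs and at -0.371 to -0.0286 in the 36 others. The labels do not say what same-numbered samples share. Alternatives were a replicate block, 2-group fits, an intensity trend, other filters, quantile normalisation, equal medians, hybridisation-control scaling, the mean of all probe sets, and leaving out each array.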

Additional observations from a re-analysis of the deposited data

Results flagged for a closer look

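The change with Aa differed between 48 h and 24 h, by limma's test of the difference itself, for 9 of the 75 genes. The difference (48 h change minus 24 h change, log2) was 1.03 for MRPS12, 0.90 for MRPS17, 0.87 for MRPL52, 0.67 for MRPL33 and 0.49 for MRPL40. It was -0.47 for MRPL34, -0.56 for MRPS26, -0.65 for MRPL45 and -0.71 for MRPS27. MRPL40, a large-subunit protein found only in mitochondria, is named here for its difference (SE 0.126, adjusted p = 0.0226), after its value was seen. Its changes were -0.20 at 24 h (adjusted p = 0.0921, and 0.0384 with replicates paired) and 0.30 at 48 h (adjusted p = 0.0122). Groups of 3 arrays are too small for a test of single outlying arrays.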

How the results depend on the processing

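No member was called in opposite directions by any 2 settings. Hybridisation-control scaling moved the medians of all genes to -0.26 (24 h), -0.47 (48 h), -0.22 (difference between times), -0.32 (between control times) and -0.54 (between Aa times). Under it 3 members rose at 24 h and 7 at 48 h, against 14.7% and 16% of all genes tested. For 2 members the difference between times was positive (2.96% of all genes), and 32 fell between control times (17% of all genes). Between Aa times 0 rose and 46 fell, against 2.21% and 58.5% of all genes. The members' medians were -0.32 at 24 h, -0.43 at 48 h, -0.48 between control times and -0.51 between Aa times. MRPS30 changed by -0.033 at 48 h under it and by -0.10 with the mean of all probe sets, which also turned MRPL19 (0.050) and MRPL35 (0.15) at 24 h. With the replicate block 18 differences between times were positive and 12 negative, 2 members rose and 13 fell between control times, and 15 rose between Aa times. The block kept all calls of members made without it, and the calls it added at 24 h, at 48 h and in the difference between times for members named by the rule are in the report. Without the filter 0 members fell between control times and 9 rose between Aa times, against 0.172% and 4.95% of all genes. Why these counts moved was not tested.

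With each array left out in turn, 7 to 13 members rose and 14 to 23 fell at 24 h (median -0.08 to -0.01), and 19 to 24 rose and 22 to 28 fell at 48 h (median -0.04 to 0.09). Differences between times were positive for 3 to 8 and negative for 2 to 5. Between control times 0 rose and 0 to 1 fell, with 1 kept only without control replicate 3 of 48 h. Between Aa times 3 to 5 rose and 12 to 16 fell. Counts at 24 h and 48 h stayed within 1.5 times those of the report under the replicate block, 2-group fits, the intensity trend, both filters, quantile normalisation, equal medians and the mean of all probe sets.

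The 24 h calls of MRPL19 and MRPL35 were lost without any of 4 arrays of 24 h each, and that of MRPL58 without control replicate 1 of 24 h. Hybridisation-control scaling ended the 24 h rises of MRPL33, MRPL45, MRPL58, MRPS11 and MRPS26 and the 48 h rises of MRPL38, MRPL44, MRPL52 and MRPS18B. The 48 h falls of MRPL30 and MRPL41 did not pass with the mean of all probe sets. Only 3 arrays a group limit what can be detected.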
